A study of Sus scrofa with 32 samples.

Results

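Fetal liver of Pietrain pigs whose mothers (gilts, females in their first pregnancy) ate the control diet was compared between 91 and 63 days post coitum (dpc). The arrays were chosen by their labels alone, diet control and stage 63 or 91 dpc, which gave 5 arrays at 91 dpc and 6 at 63 dpc, 11 of the 32 arrays of the series. The series was set up to study how gestation diets that differ in methylating micronutrients act on the fetal liver, and the same ages under the methyl-enriched diet (6 arrays at 63 dpc, 5 at 91 dpc) and the control arrays of 35 dpc (5) are used below for values set side by side. All groups are liver total RNA of the same breed, and no group carries a transgene or a drug. The design text names 5 to 6 gilts per stage, and no label ties an array to a gilt, a litter or a fetal sex. The p-values therefore measure the spread between arrays. That spread is estimated within the 6 groups of diet and age over all 32 arrays, so the arrays of the other groups enter it too. Fetuses of 1 gilt within a group would make the p-values too small. All 23999 probe sets other than the manufacturer's controls entered, and 15327 passed a filter on low values (above the array's 40th percentile in at least 5 of the 32 arrays). Of those, 7625 carry 1 gene symbol, for 5594 genes, and each gene is read below by its brightest probe set.

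In mid gestation the fetal liver is the main site of blood formation: erythroid, megakaryocytic and granulocytic precursors multiply between immature hepatocytes. Towards term blood formation moves to the bone marrow, while hepatocytes take on the tasks that birth will demand, among them glucose output, urea synthesis, bile secretion and drug metabolism. Rising glucocorticoids are known to drive part of that hepatocyte maturation. In bulk tissue, fewer cells of a type and less RNA per cell cannot be told apart, and this holds for every blood cell result below.

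Markers of the labelled tissue were high. ALB, APOA1, TTR, SERPINA1 and TF, plasma proteins that hepatocytes secrete, read between 13.88 and 16.38 on the log2 scale in all 11 arrays. Defining markers of pancreas (CPA1, CPB1), adrenal or gonad (CYP11A1, CYP17A1, STAR) and lymphocytes (CD3E, CD79B) were filtered out as low. The deposited signals do not depend on a read depth, and the number of arrays limits the precision. Array medians over the series ran from 3.83 to 4.22, and pairwise correlations of arrays were 0.938 to 0.987 within 63 dpc, 0.968 to 0.986 within 91 dpc and 0.853 to 0.975 between the ages. A principal component analysis of the 11 arrays put 64.5% of the variance on its first axis, along which the 63 dpc arrays spread from -94.4 to -4.06 and the 91 dpc arrays from 31.7 to 79.4, with 63 dpc replicates 5 and 6 nearest to the later age and replicates 2 and 4 farthest from it. The gap between the hybridization control probe sets bioC and bioB splits the arrays at 1.2 into high-gap arrays (63 dpc replicates 1, 3 and 6, 91 dpc replicates 1, 3 and 5) and low-gap arrays (63 dpc replicates 2, 4 and 5, 91 dpc replicates 2 and 4). Both ages hold both sets, so the gap set could be fitted as a term. The difference between 3' and 5' control probe sets averaged 3.02 in the high-gap and 2.48 in the low-gap arrays of the series. It ran from 2.42 to 2.98 in the 63 dpc and from 2.08 to 3.05 in the 91 dpc control arrays. EIF1AY, a Y-linked gene, read 2.64 in 63 dpc replicate 2 and 6.27 to 8.81 in the rest of the 11 arrays.

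In the account that follows, a level is a log2 signal. For 63 dpc the lowest, median and highest of the 6 arrays are given, and for 91 dpc the 5 arrays in the order of replicates 1 to 5, numbers that only name them. A difference is the 91 dpc mean minus the 63 dpc mean on the log2 scale with its standard error, and calls are at a limma adjusted p under 0.05 over the 15327 probe sets. A level at or under its array's 40th percentile (2.74 to 2.83) is called near background, and a probe set is not compared in level with another. Means at 35 dpc are given for orientation: between 35 and 63 dpc 6055 of the 15327 probe sets (39.5%) were called under the control diet, a comparison that shares the 63 dpc arrays.

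From 63 to 91 dpc blood-forming and dividing-cell genes fell, and genes of bile, cholesterol, antigen presentation and single hepatocyte functions rose. Of 15327 probe sets, 6892 (45.0%) were called, 3838 higher (25.0%) and 3054 lower (19.9%). The higher calls were 55.7% of all calls as deposited and 40.9% after each array was centred on its median, a centring that moved the median difference over the probe sets from -0.0080 to -0.18. By gene the balance leaned the other way, with 1079 of 5594 genes higher (19.3%) and 1650 lower (29.5%), 48.8% in all, and a median difference over all genes of -0.12. Among called probe sets the quartiles of the size of the difference were 0.65, 0.92 and 1.34. At least a 2-fold difference was reached by 497 of the genes called higher and 440 of those called lower. For 565 genes (10.1%) every 91 dpc array lay above every 63 dpc array, and for 927 (16.6%) every one lay below. With the gap set as a term 7441 probe sets were called, in the high-gap arrays alone 5240, and in the low-gap arrays alone, with 5 control arrays of these ages, 2272 (1008 higher, 1264 lower). The counts of called genes in each of the 37 gene lists below are to be read against the shares of all genes. Where 0 members of a list were called in a direction, 0 also reached an unadjusted p under 0.05 in that direction, which is not repeated below.

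Some genes went from near background to a clear signal, among them KLF9, a zinc finger transcription factor that glucocorticoids and thyroid hormone induce. KLF9 read 2.20, 2.43 and 2.57 at 63 dpc, near background in all 6 arrays, and 7.51, 7.64, 7.78, 7.10 and 7.03 at 91 dpc. All 5 late arrays stood far above the early ones with little spread, and the rise was at least 24.7-fold (limma adjusted p = 2.08e-18). At 35 dpc its mean was 2.39, also near background. CYP2C91, a pig cytochrome P450 of the drug-metabolizing 2C family, read 2.20, 2.20 and 2.22 and then 6.70, 5.78, 6.79, 4.43 and 5.63, at least 8.48-fold higher (limma adjusted p = 3.72e-08). SULT2A1, which sulfates steroids and bile acids, read 2.20, 2.502 and 2.502 and then 5.23, 5.45, 4.94, 5.56 and 5.24, at least 5.67-fold higher (limma adjusted p = 4.13e-11). Both genes were near background in all 6 arrays at 63 dpc and above it in all 5 at 91 dpc.

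GSTA1, a glutathione transferase, had levels of 2.20, 2.86 and 4.64 at 63 dpc, with 2 of 6 arrays near background, and 10.52, 10.96, 10.38, 4.90 and 6.61 at 91 dpc (fitted difference 5.69 ± 0.76, limma adjusted p = 7.88e-07, its size uncertain with early arrays near background). The late arrays fell into a high and a low part: replicates 1 to 3 stood above 10, replicates 4 and 5 below 7, yet the lowest of them was still above all 6 early arrays. CYP2C42, another 2C cytochrome, split the same 5 arrays the same way, with 6.80, 6.94, 7.12, 3.17 and 2.89 at 91 dpc against 2.20, 2.40 and 3.42 at 63 dpc. Its replicates 4 and 5 overlapped the 63 dpc range, and 4 of the 6 early arrays were near background (fitted difference 2.76 ± 0.67, limma adjusted p = 0.00132), so that the size of its difference is uncertain too. Replicate 4 is a low-gap and replicate 5 a high-gap array.

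Several secreted and regulatory genes rose on top of levels already present at 63 dpc. APCS, serum amyloid P component of the pentraxin family, read 5.04, 6.01 and 8.31 and then 10.47, 10.80, 10.85, 9.20 and 9.06 (difference 3.78 ± 0.54, limma adjusted p = 1.89e-06). NFIB, a nuclear factor I transcription factor, read 3.91, 5.68 and 6.59 and then 8.40, 7.60, 9.001, 8.05 and 8.88 (difference 2.89 ± 0.35, limma adjusted p = 2.01e-07). PPARGC1A, a coactivator that raises gluconeogenic and mitochondrial genes, read 2.72, 3.54 and 4.49 and then 6.26, 6.25, 6.61, 6.61 and 6.68 (difference 2.81 ± 0.24, limma adjusted p = 6.62e-10). In all of these the 2 ages did not overlap, and the late values of PPARGC1A lay within 0.433 of each other.

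PDK4, the kinase that switches off pyruvate dehydrogenase and so spares glucose, read 2.68, 4.31 and 5.80 at 63 dpc and 8.69, 8.19, 8.97, 7.38 and 7.45 at 91 dpc (difference 3.72 ± 0.47, limma adjusted p = 3.42e-07). The 2 highest early arrays were replicates 5 and 6, those nearest to 91 dpc along the first component. LRRN3, a leucine-rich repeat membrane protein, read 6.91, 8.56 and 9.22 and then 11.51, 11.27, 11.86, 11.49 and 11.64, and DPP4, the dipeptidyl peptidase of the cell surface, 7.26, 8.22 and 8.61 and then 10.996, 10.44, 11.13, 10.69 and 11.04. Both had already risen between 35 dpc (means 4.54 and 5.78) and 63 dpc. The other large rises were those of BACE2 (2.90), an aspartic protease, ADAMTS6 (2.79), a secreted metalloprotease, and CD14 (2.76), a co-receptor for bacterial lipopolysaccharide. TNNI2, the fast skeletal muscle form of troponin I, is described with TNNI1 further on.

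**Figure D1:**
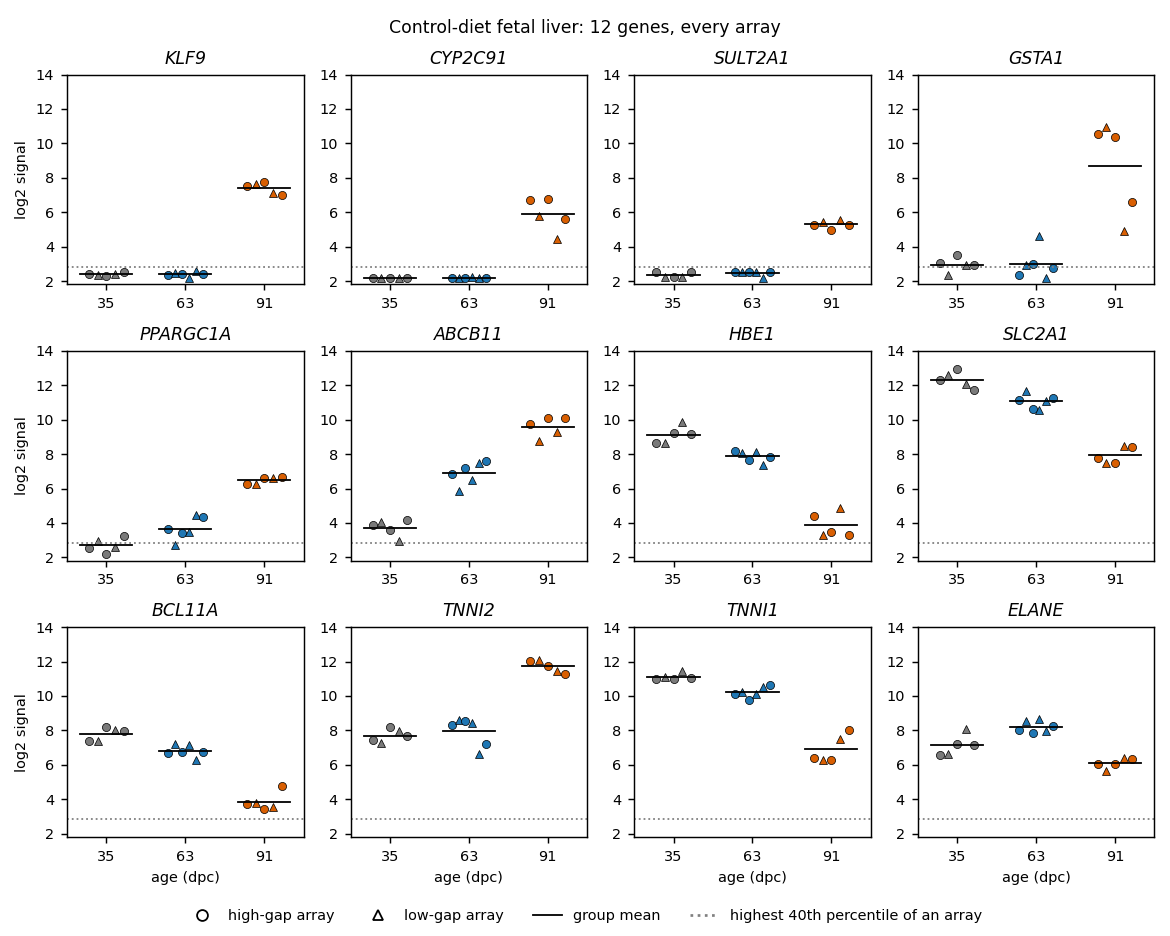
Log2 signal (vertical axis) of 12 genes in every control-diet array at 35, 63 and 91 dpc (horizontal axis), with circles for high-gap and triangles for low-gap arrays, a bar at each group mean and a dotted line at 2.83, the highest 40th percentile of any array. KLF9, CYP2C91 and SULT2A1 lay under or at that line until 63 dpc, and HBE1, SLC2A1 and BCL11A ended at least 2.95 below their 63 dpc means.

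HBE1, the embryonic globin, had the largest fitted fall. It read 7.36, 7.95 and 8.18 at 63 dpc and 4.39, 3.27, 3.49, 4.85 and 3.31 at 91 dpc (difference -4.001 ± 0.30, limma adjusted p = 4.82e-11), after a mean of 9.10 at 35 dpc. No array of one age reached the range of the other, and no value was near background. SLC2A1, the glucose transporter of red cells and of many growing tissues, read 10.56, 11.12 and 11.68 and then 7.75, 7.51, 7.48, 8.48 and 8.39 (difference -3.14 ± 0.28, limma adjusted p = 9.71e-10). BCL11A, a repressor of the fetal globin program, read 6.25, 6.75 and 7.19 and then 3.74, 3.76, 3.41, 3.52 and 4.77 (difference -2.95 ± 0.23, limma adjusted p = 6.86e-11). The adult beta globin HBB went the other way, with 6.51, 7.40 and 8.53 at 63 dpc, 8.21, 8.14, 9.03, 8.31 and 8.69 at 91 dpc and a difference of 0.97 ± 0.35 (limma adjusted p = 0.0226). Its ranges overlapped, with 63 dpc replicates 5 and 6 as high as the late arrays, and the call was lost when any of 63 dpc replicates 1, 2 and 4 or 91 dpc replicate 3 was left out (limma adjusted p = 0.0553, 0.0757, 0.061 and 0.0743). It was also lost in a fit of the 11 arrays alone, in either gap set alone and with EIF1AY as a covariate. Without 63 dpc replicates 2 and 4 together the difference was 0.56 and was not called.

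Beyond the globins, the erythroid list fell almost as a whole. Of 18 measured genes of erythroid cells and heme synthesis 16 were called lower and 1, HBB, higher, with a median difference of -1.77 against -0.12 over all genes. ALAS2, the erythroid enzyme that starts heme synthesis, read 13.35, 13.54 and 13.82 and then 11.32, 11.34, 11.08, 12.27 and 12.12 (difference -1.96 ± 0.22, limma adjusted p = 3.62e-08). The later heme enzymes ALAD (-1.66), UROD (-2.02) and PPOX (-1.90) fell by a like amount. EPOR, the erythropoietin receptor, read 9.15, 9.44 and 9.88 and then 7.205, 6.67, 7.01, 7.49 and 7.66 (difference -2.30 ± 0.20, limma adjusted p = 5.47e-10). TFRC, the transferrin receptor, did not pass: it spread from 4.68 to 9.08 at 63 dpc and over 4.94, 6.85, 5.46, 7.42 and 4.83 at 91 dpc (difference -0.64 ± 0.84, limma adjusted p = 0.561). EPO itself, the hormone, read 3.15, 3.37 and 4.65 and then 3.01, 2.93, 3.02, 3.37 and 2.92 (difference -0.68 ± 0.39, limma adjusted p = 0.168). Averaged over the 18 genes, the list stood at 10.66 to 10.98 in the 63 dpc arrays and at 8.81 to 9.57 in the 91 dpc arrays.

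Platelet, mast, stem and progenitor cell genes moved with the erythroid ones. Of 10 measured, 7 were called lower and 1 higher (median -1.48), against 29.5% and 19.3% of all genes. ITGA2B, the platelet integrin, read 7.96, 8.43 and 8.84 and then 6.03, 6.199, 6.38, 6.31 and 6.80 (difference -2.03 ± 0.21, limma adjusted p = 1.25e-08). SELP (-1.83) and VWF (-2.02), adhesion proteins of platelets and endothelium, PPBP (-1.81), a platelet chemokine, and LMO2 (-1.52), a transcription factor of blood progenitors, fell as well. For all 5 genes the ages did not overlap.

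All 9 measured neutrophil granule genes were called lower (median -0.99), 5 of them with no overlap of the ages. In a fit of the 11 arrays alone 7 were called lower, in the high-gap arrays alone 3 and in the low-gap arrays alone 4. The shares of all genes called lower in these fits were 27%, 22.3% and 11.7%. ELANE, neutrophil elastase, read 7.87, 8.13 and 8.65 at 63 dpc and 6.07, 5.66, 6.06, 6.38 and 6.32 at 91 dpc (difference -2.11 ± 0.23, limma adjusted p = 3.54e-08). Its mean at 35 dpc had been 7.14, so 63 dpc was the highest of the 3 ages. PRTN3, the related protease 3, followed the same course with means of 8.45, 9.13 and 7.23 (difference 91 minus 63 dpc -1.90 ± 0.26). The calgranulins S100A8 (-1.42) and S100A12 (-1.37), lactoferrin LTF (-0.68) and the protegrin NPG4 (-0.67) were lower too, LTF with overlapping ages. Without 91 dpc replicate 1 the difference of LTF was -0.45 (limma adjusted p = 0.131) and that of NPG4 -0.52 (limma adjusted p = 0.109), and without 63 dpc replicate 6 both were -0.60 (limma adjusted p = 0.0564 and 0.0589). NPG4 also lost its call without 91 dpc replicate 3 (limma adjusted p = 0.051). Of its other probe sets, those with differences of -0.79, -0.68 and -0.641 were called. Those with differences of -0.637 and -0.70 were not (limma adjusted p = 0.085 and 0.261).

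Genes of the cell cycle and of DNA replication fell over the same arrays. Of 35 measured, 31 were called lower and 0 higher by limma, with a median of -1.59. UBE2C, which feeds mitotic cyclins to the proteasome, read 10.45, 10.85 and 11.21 and then 8.53, 8.65, 8.50, 9.29 and 8.91 (difference -2.04 ± 0.17, limma adjusted p = 2.97e-10). The mitotic kinases AURKA (-1.91) and PLK1 (-1.90), the cyclin-dependent kinase partners CKS1B (-1.67) and CKS2 (-1.84) and securin PTTG1 (-2.04) fell with no overlap of the ages. TOP2A, the mitotic topoisomerase, did not pass: it read 8.15, 9.54 and 10.52 and then 9.28, 9.005, 9.61, 9.73 and 10.12 (difference 0.12 ± 0.34, limma adjusted p = 0.804). The erythroid list fell by a similar amount over these arrays, and its part in the cell cycle result was not tested.

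**Figure D2:**
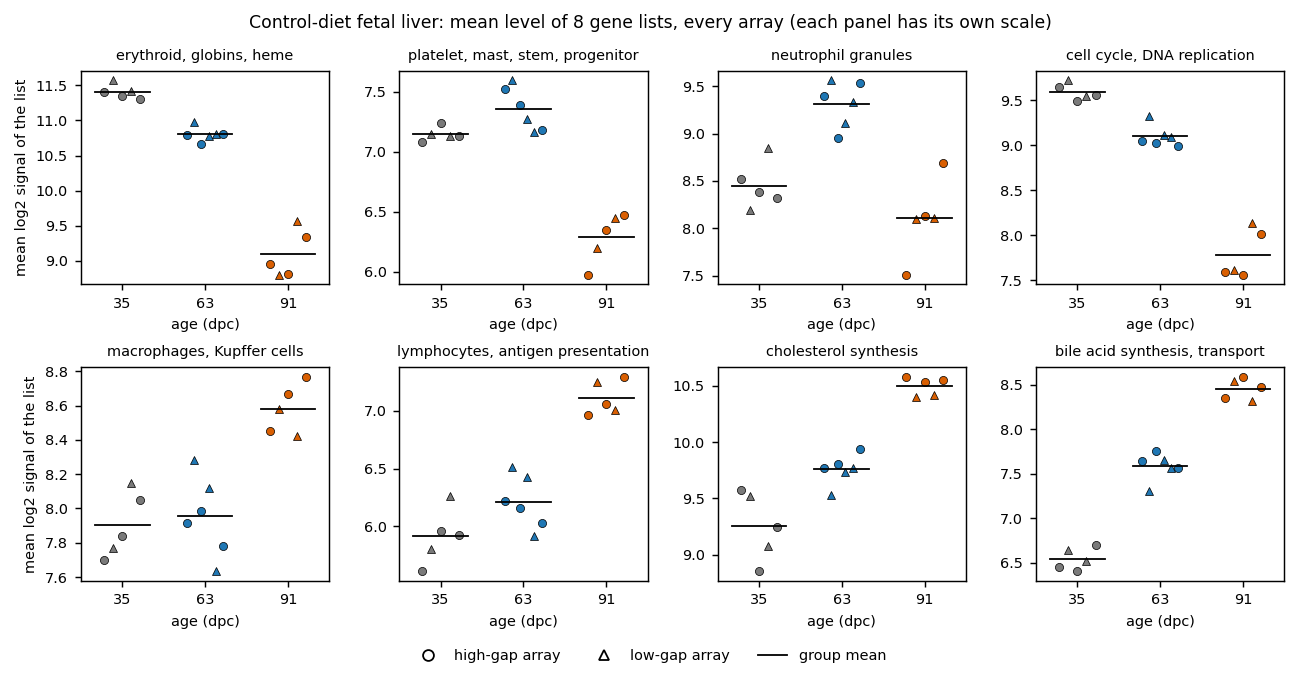
Mean log2 signal (vertical axis) of the measured genes of 8 lists in each control-diet array at 35, 63 and 91 dpc (horizontal axis), with circles for high-gap and triangles for low-gap arrays and a bar at each group mean. The erythroid mean went from 10.66 to 10.98 at 63 dpc to 8.81 to 9.57 at 91 dpc, and the macrophage and the lymphocyte and antigen presentation means were above all 63 dpc arrays at 91 dpc.

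Macrophage and antigen presentation genes rose while the other blood lists fell. Of 21 measured genes of macrophages and Kupffer cells, 11 were called higher and 1 lower (median 0.32), and with each array centred on its median 7 higher and 3 lower (median 0.15). CD5L, a protein that tissue macrophages secrete, read 7.31, 8.18 and 9.11 and then 10.08, 10.04, 10.12, 10.21 and 10.71 (difference 2.06 ± 0.22, limma adjusted p = 2.64e-08). CD163, the haptoglobin-hemoglobin scavenger receptor, read 6.68, 6.96 and 7.40 and then 8.0004, 8.29, 8.89, 8.54 and 8.80 (difference 1.504 ± 0.17, limma adjusted p = 6.57e-08). The mannose receptor MRC1 (2.05) and cathepsin S, CTSS (1.18), rose with no overlap. MARCO (-0.41, limma adjusted p = 0.191) and C1QA (0.092, limma adjusted p = 0.769), which also mark macrophages, did not pass.

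Of 16 measured genes of lymphocytes and antigen presentation, 9 were called higher and 0 lower by limma (median 0.53; 2 of the 7 others were below 0). The called ones are mostly class II genes, which antigen-presenting cells use to display peptides. SLA-DRA, the class II alpha chain, read 4.86, 5.76 and 6.80 and then 7.39, 8.74, 8.08, 8.26 and 8.62 (difference 2.36 ± 0.39, limma adjusted p = 1.42e-05). SLA-DQA1 (2.26), SLA-DQB1 (1.84), SLA-DRB1 (1.77) and the invariant chain CD74 (2.15) rose alongside. CD74 also stands in the macrophage list. The T and B cell markers CD3E and CD79B were filtered out as low, so no level of those cells is given. SLA genes have near-identical copies, and a probe set may read several of them.

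Interferon-induced genes did not move one way. Of 16 measured, 6 were called higher and 2 lower, against 4 and 2 after quantile normalization, 4 and 3 after median centring and 4 and 0 in a fit of the 11 arrays alone. IRF1, an interferon-inducible transcription factor, rose by 1.24 and the kinase EIF2AK2 by 1.98. The call of EIF2AK2 was lost in the high-gap and in the low-gap arrays alone, and its difference was 1.34 without 63 dpc replicates 2 and 4 together. ISG15, a ubiquitin-like protein, read 4.94, 6.16 and 8.45 at 63 dpc and 5.39, 6.03, 4.94, 4.23 and 4.94 at 91 dpc (difference -1.40 ± 0.45, limma adjusted p = 0.0121). Replicates 3 and 4 at 63 dpc, at 8.06 and 8.45, were the highest, and the other 4 early arrays overlapped the late ones. The whole list stood apart in the same 2 arrays, with a mean level of 5.64 and 5.70 against 4.90 to 5.03 in the other 4 early arrays and 5.21 to 5.61 at 91 dpc. The part of these 2 arrays in the list's counts was not tested.

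The hepatocyte's own products changed selectively. Of 27 measured carrier and secreted proteins, 9 were called higher and 5 lower (median 0.20), and 8 and 8 after median centring (median 0.027). Among the most abundant ones AFP, alpha-fetoprotein, and TTR, transthyretin, were not called. AFP read 15.77, 15.80 and 15.92 and 15.80, 15.90, 15.68, 15.90 and 15.67 (difference -0.034 ± 0.069, limma adjusted p = 0.715), and TTR had a difference of 0.028 ± 0.066 (limma adjusted p = 0.756). The highest value of the series was 16.565, and an effect of levels near it on these differences was not tested. ALB read 13.88, 14.88 and 15.19 and then 15.29, 15.38, 15.17, 15.43 and 15.20 (difference 0.51 ± 0.27, limma adjusted p = 0.124), with 63 dpc replicate 2 the lowest array. TF, transferrin, fell by a small but even amount in its brightest probe set, from 15.76, 15.83 and 15.90 to 15.49, 15.58, 15.38, 15.68 and 15.41 (difference -0.31 ± 0.049, limma adjusted p = 7.96e-06). A second TF probe set had a difference of -0.65 ± 0.099 (limma adjusted p = 4.92e-06).

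Among the secreted proteins with larger changes, LEAP2, a liver antimicrobial peptide, read 6.71, 6.96 and 7.38 and then 8.99, 9.74, 9.16, 9.06 and 8.64 (difference 2.11 ± 0.23, limma adjusted p = 2.69e-08). SERPINA7, thyroxine-binding globulin, rose by 0.91 and HPX, hemopexin, by 0.75. SERPINA6, corticosteroid-binding globulin, read 11.82, 11.96 and 12.44 and then 10.80, 11.29, 10.79, 10.91 and 10.44 (difference -1.17 ± 0.18, limma adjusted p = 4.94e-06), a further step down from 13.50 at 35 dpc. HAMP, the iron hormone hepcidin, had a difference of 0.071 ± 0.26 (limma adjusted p = 0.845).

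Coagulation, complement and lipoprotein genes rose in part. Of 9 measured coagulation genes 6 were called higher and 0 lower by limma (median 0.67; PLG, plasminogen, named after its value was seen, was the 1 below 0 at -0.073), and after median centring 4 higher and 1 lower. F9, coagulation factor IX, read 11.29, 11.49 and 11.85 and then 13.04, 12.84, 13.06, 12.84 and 13.08 (difference 1.46 ± 0.17, limma adjusted p = 6.81e-08), and KLKB1, the precursor of plasma kallikrein, 8.41, 9.29 and 9.52 and then 11.14, 11.21, 11.29, 10.90 and 11.24 (difference 2.06 ± 0.34). PROS1 (1.18), protein S, and F5 (1.103), factor V, rose without overlap. Of 17 complement genes 7 were called higher and 2 lower (median 0.54). C8B, a subunit of the membrane attack complex, read 8.30, 8.42 and 8.55 and then 11.001, 10.78, 10.71, 10.65 and 11.15 (difference 2.43 ± 0.18, limma adjusted p = 4.82e-11), and its 63 dpc mean was under the 35 dpc mean of 9.498. C5 (1.92) and C9 (1.18), other parts of that complex, rose as well, while CLU, clusterin, an inhibitor of it, had a difference of -0.54 ± 0.11 (limma adjusted p = 1.39e-04). Of 14 apolipoprotein and lipoprotein assembly genes 5 were called higher and 0 lower by limma (median 0.22; 3 were below 0). APOB, the scaffold of very low density lipoproteins, read 12.33, 13.76 and 14.61 and then 15.28, 14.95, 15.36, 15.04 and 15.15 (difference 1.52 ± 0.29), and MTTP, which loads lipid onto it, rose by 0.77.

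Bile and cholesterol genes were among the clearest liver groups. Of 14 measured genes of cholesterol synthesis, 9 were called higher and 0 lower by limma (median 0.92; 3 were below 0, the lowest at -0.088). CYP51, lanosterol demethylase, read 11.32, 11.59 and 12.26 and then 13.01, 12.92, 13.09, 13.23 and 13.17 (difference 1.36 ± 0.19, limma adjusted p = 2.09e-06). SQLE (1.14), SC5D (1.47), MSMO1 (1.16) and HSD17B7 (0.96), enzymes of the same pathway, and its brake INSIG1 (0.88) rose with no overlap. Of 8 bile acid genes 5 were called higher and 1 lower (median 0.82). ABCB11, the pump that exports bile salts into the canaliculus, read 5.87, 7.01 and 7.62 and then 9.77, 8.74, 10.07, 9.28 and 10.11 (difference 2.67 ± 0.28, limma adjusted p = 1.67e-08), after 3.73 at 35 dpc. SLC10A1, the uptake carrier on the other face of the cell, read 8.43, 9.02 and 10.18 and then 10.56, 10.92, 10.60, 10.12 and 10.22 with overlapping ages (difference 1.26 ± 0.31, limma adjusted p = 0.00132). CYP27A1, which oxidizes the sterol side chain, had a difference of -0.52 ± 0.14. Its other probe sets were not called (differences -0.53 and 0.011, limma adjusted p = 0.160 and 0.987), and neither was the mean of all its probe sets (-0.35). EPCAM (1.25) and KRT19 (1.06), markers of bile duct cells, rose too, 2 of 7 measured in that list, and their part in the bile acid result was not tested. The call of KRT19 was lost without any of 63 dpc replicates 5 and 6 or 91 dpc replicates 1, 2 and 3 (limma adjusted p = 0.095, 0.091, 0.0801, 0.134 and 0.0722). It was also lost after quantile normalization, after median centring, with array weights, without the filter on low values and in either gap set alone. The bile duct list held 1 higher call after quantile normalization, and 1 higher and 1 lower after median centring.

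**Figure D3:**
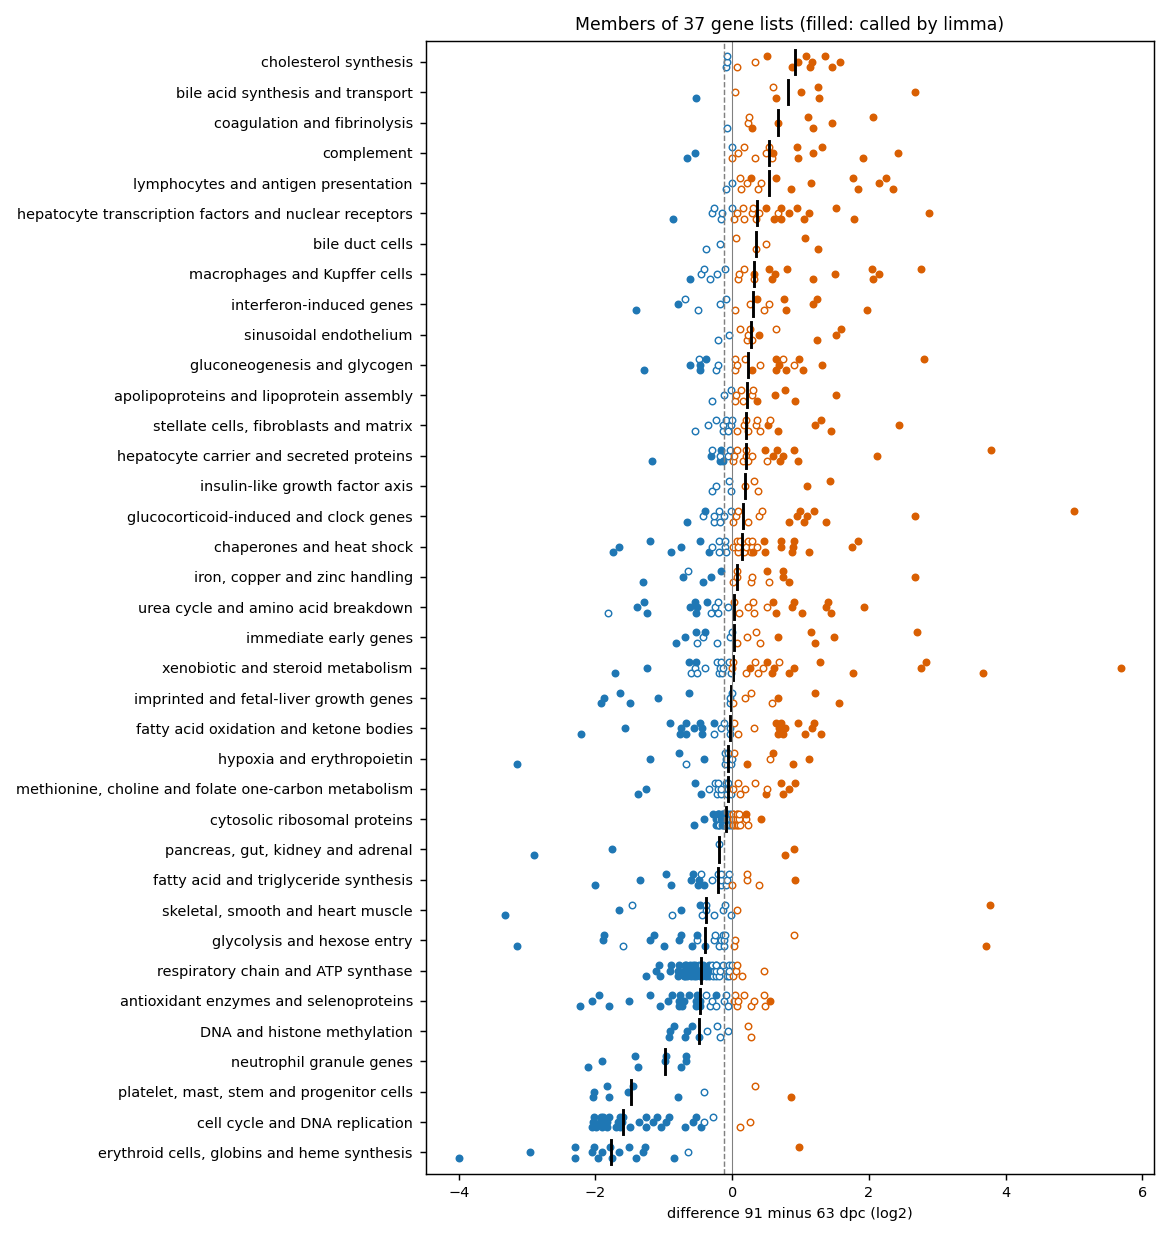
Difference 91 minus 63 dpc (horizontal axis, log2) of every measured member of the 37 gene lists (rows), with called members filled, others open, orange above 0 and blue below, a bar at each list's median and a dashed line at -0.12, the median of all 5594 genes. The cell cycle (median -1.59) and erythroid (median -1.77) lists lay farthest to the left and cholesterol synthesis (median 0.92) farthest to the right.

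Transcription factors and receptors of the hepatocyte leaned upwards. Of 26 measured, 11 were called higher and 1 lower (median 0.37), and 8 and 3 after median centring (median 0.20). NFIA, the relative of NFIB, read 3.97, 4.75 and 5.71 and then 6.79, 5.83, 6.66, 6.51 and 6.76 (difference 1.78 ± 0.28, limma adjusted p = 8.76e-06). NR5A2 (1.52), a regulator of bile acid synthesis, and NR2F1 (1.05) rose without overlap. NR1I2, the pregnane X receptor that controls drug-metabolizing genes, was near background in all 6 arrays at 63 dpc and read 2.39, 3.59, 2.86, 4.05 and 3.75 at 91 dpc, near background in 1 of 5 (at least 1.46-fold higher). HNF4A, a master regulator of hepatocyte identity, read 10.78, 10.95 and 11.57 and 11.09, 10.999, 11.08, 10.94 and 11.13 (difference -0.00057 ± 0.12, limma adjusted p = 1). CEBPA, which drives hepatocyte differentiation, was the 1 called lower (-0.87 ± 0.34, limma adjusted p = 0.0376), with overlapping ages. Leaving out any 1 of 63 dpc replicates 2, 4 and 6 or 91 dpc replicates 1, 3, 4 and 5 ended that call (limma adjusted p = 0.0959, 0.0673, 0.0609, 0.0541, 0.0977, 0.0751 and 0.0719).

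Of 24 glucocorticoid-induced and clock genes, 9 were called higher and 2 lower, with a median of 0.15 that became -0.017 when arrays were centred on their medians. NR3C1, the glucocorticoid receptor, read 3.44, 3.63 and 4.27 and then 4.57, 4.67, 4.53, 5.16 and 4.35 (difference 0.96 ± 0.19, limma adjusted p = 1.99e-04). HSD11B1, which regenerates active glucocorticoid inside the cell, had means of 10.48 at 35 dpc, 9.89 at 63 dpc and 10.72 at 91 dpc (difference 91 minus 63 dpc 0.83 ± 0.15, limma adjusted p = 5.71e-05). SGK1, a kinase induced by corticosteroids, read 9.01, 9.16 and 9.33 and then 10.33, 10.29, 10.50, 9.73 and 10.21 (difference 1.04 ± 0.15). STEAP4, a metalloreductase, rose by 2.68 and ARNTL, a core clock factor, by 0.99. PPARA was on the array but filtered out as low.

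Of 24 genes of gluconeogenesis and glycogen, 9 were called higher and 5 lower (median 0.24). After median centring the balance turned, with 6 higher and 7 lower (median 0.067). FBP1, fructose bisphosphatase, read 11.14, 11.49 and 11.99 and then 12.38, 12.66, 12.49, 12.03 and 12.02 (difference 0.78 ± 0.19, limma adjusted p = 0.00144), and UGP2, which makes the sugar donor for glycogen, 11.21, 11.72 and 12.25 and then 12.59, 12.73, 12.93, 12.94 and 12.82 (difference 1.04 ± 0.22). PCK1, the cytosolic enzyme of gluconeogenesis, read 7.67, 8.17 and 9.31 and then 9.15, 8.77, 9.19, 8.76 and 9.42 and did not pass (difference 0.74 ± 0.32, limma adjusted p = 0.0597), though it passed without 63 dpc replicate 1 or 2 (limma adjusted p = 0.0425 and 0.0186). GPT, alanine transaminase, had a log2 difference of -1.29 (limma adjusted p = 2.88e-04). Of 25 genes of glycolysis and hexose entry, 1 was called higher, PDK4, and 11 lower (median -0.40). After SLC2A1 the largest of these falls were the transporters SLC2A3 (-1.89) and SLC2A8 (-1.87) and the hexokinase HK1 (-1.198), all without overlap. GAPDH, often used as a reference gene, read 13.89, 14.11 and 14.25 and then 13.53, 13.60, 13.36, 13.67 and 13.71 (difference -0.51 ± 0.080, limma adjusted p = 7.94e-06).

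Amino acid enzymes moved in both directions. Of 29 measured genes of the urea cycle and of amino acid breakdown 9 were called higher and 8 lower. CPS1, the first and mitochondrial enzyme of urea synthesis, read 10.96, 11.46 and 11.81 and then 12.96, 12.95, 13.12, 12.76 and 12.70 (difference 1.45 ± 0.19, limma adjusted p = 3.81e-07), whereas ARG1, the last enzyme, had a difference of -0.53 ± 0.11 (limma adjusted p = 2.88e-04). KYNU, kynureninase, rose by 1.92, and CDO1 (-1.40), which oxidizes cysteine, and AMT (-1.25), of the glycine cleavage system, were lower. TAT, tyrosine aminotransferase, read 10.95, 11.42 and 11.75 and then 12.96, 12.80, 12.98, 12.36 and 12.44 with no overlap (difference 1.37 ± 0.22, limma adjusted p = 8.54e-06). HPD, the next enzyme of tyrosine breakdown, had a mean of 11.54 at 35 dpc. At 63 dpc it spread from 2.67 to 9.18, with 2 of 6 arrays near background, and at 91 dpc it read 3.92, 3.49, 2.70, 3.89 and 3.80 (difference -1.81 ± 0.79, limma adjusted p = 0.0607). Its 2 highest early arrays were replicates 1 and 2, at 8.08 and 9.18, and without replicate 5 or replicate 6 the difference was -2.35 and passed (limma adjusted p = 0.0122 and 0.0121).

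Fat genes moved in both directions as well. Of 31 genes of fatty acid oxidation and ketone bodies, 11 were called higher and 12 lower (median -0.036). CPT1A, the gate of mitochondrial fatty acid oxidation, read 6.95, 7.06 and 7.57 and then 8.68, 8.32, 8.37, 7.62 and 8.10 (difference 1.06 ± 0.18, limma adjusted p = 3.15e-05), and FABP1, the liver fatty acid binding protein, 12.40, 12.65 and 13.29 and then 13.90, 13.85, 14.01, 14.02 and 13.94 (difference 1.201 ± 0.16). UCP2, a mitochondrial carrier, had a difference of -2.21 ± 0.37 and OXCT1, which lets cells burn ketone bodies, of -1.57 ± 0.20, both without overlap. Of 23 genes of fatty acid and triglyceride synthesis, 1, ELOVL6 (0.91), was called higher and 9 lower (median -0.21), among them MGLL (-2.005), LPIN2 (-1.35) and ELOVL1 (-0.98). FABP3, the fatty acid binding protein best known from muscle, read 6.90, 7.70 and 8.87 and then 4.73, 4.74, 4.58, 5.53 and 5.19 (difference -2.72 ± 0.26, limma adjusted p = 3.67e-09).

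Drug and steroid metabolism followed single genes more than the group. Of 35 measured, 12 were called higher and 4 lower (10 and 7 after median centring), and the median of 0.017 turned to -0.058 after quantile normalization and -0.15 after median centring. Besides GSTA1, the 2C cytochromes and SULT2A1, GSTA4 rose by 1.29 (7.92, 8.32 and 8.71 and then 9.79, 10.33, 9.78, 9.15 and 9.02). MGST3, a microsomal glutathione transferase, read 12.79, 13.10 and 13.47 and then 11.01, 11.44, 10.94, 12.001 and 11.50 (difference -1.71 ± 0.17, limma adjusted p = 3.88e-09).

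Respiratory chain and antioxidant genes fell. Of 59 measured subunits of the respiratory chain and ATP synthase, 38 were called lower and 0 higher by limma (median -0.45; 5 of the 21 others were above 0). In the high-gap arrays alone 36 were called lower (median -0.51), and in the low-gap arrays alone 9 (median -0.32). The shares of all genes called lower in these 2 fits were 22.3% and 11.7%. NDUFS3, a core subunit of complex I, read 10.68, 11.16 and 11.48 and then 9.74, 10.23, 9.74, 10.33 and 10.08 (difference -1.08 ± 0.12, limma adjusted p = 4.27e-08). UQCR10 of complex III (-1.11), COX7A2 and COX5B of cytochrome oxidase (-0.69 and -0.68) fell without overlap. Of 38 antioxidant enzymes and selenoproteins 21 were called lower and 1 higher (median -0.48). GLRX5, a mitochondrial glutaredoxin needed for iron-sulfur clusters and heme, read 11.19, 11.52 and 11.88 and then 9.59, 9.48, 9.44, 10.01 and 9.92 (difference -1.81 ± 0.14, limma adjusted p = 8.05e-11), and BLVRA, biliverdin reductase, had a difference of -2.22 ± 0.22. PRDX2, a peroxiredoxin abundant in red cells and also counted in the erythroid list, read 13.55, 13.72 and 13.96 and then 11.87, 12.17, 11.80, 12.84 and 12.44 (difference -1.503 ± 0.17). The fall of the erythroid list over these arrays was not tested for its part in either group.

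Of 59 measured cytosolic ribosomal proteins, 15 were called lower and 2 higher, and the median was -0.094 against -0.12 over all genes. The count depended on the scaling: 24 were lower and 2 higher after quantile normalization (35.2% of all genes lower), and 39 lower and 1 higher after median centring (39.7% of all genes lower). RPL5 read 14.37, 14.46 and 14.62 and then 14.77, 15.02, 14.88, 14.95 and 14.94 (difference 0.42 ± 0.10, limma adjusted p = 0.00148), and RPL15 had a log2 difference of -0.28 (limma adjusted p = 0.00114). Of 36 chaperones 11 were called higher and 7 lower (7 and 8 after median centring), with a median of 0.14 that became -0.030 after median centring. HSP90B1, the chaperone of the endoplasmic reticulum, read 9.51, 11.04 and 11.52 and then 12.66, 11.99, 12.95, 12.07 and 12.83 (difference 1.84 ± 0.32, limma adjusted p = 3.65e-05). HSPA13 (1.76) and DNAJC3 (0.90), also of the secretory pathway, rose, and the heat shock proteins HSPA2 (-1.66) and HSPA6 (-1.75) and the cytosolic chaperonin subunit CCT7 (-0.74) fell, all without overlap.

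Growth and imprinted genes were mixed. IGF2, the fetal insulin-like growth factor, read 14.24, 14.45 and 14.78 and 14.91, 14.42, 14.77, 14.46 and 14.82 (difference 0.19 ± 0.10, limma adjusted p = 0.124), while 1 of its 8 other probe sets was called lower. IGFBP1, a binding protein that restrains these growth factors, read 12.55, 12.69 and 13.15 and then 13.92, 13.99, 13.96, 13.62 and 13.67 (difference 1.09 ± 0.25, limma adjusted p = 7.50e-04), and IGFBP2 10.53, 10.95 and 11.24 and then 12.75, 12.02, 12.57, 11.89 and 12.68 (difference 1.43 ± 0.52, limma adjusted p = 0.0247). IGF2 passed without 63 dpc replicate 3 or 91 dpc replicate 2 (limma adjusted p = 0.0451 and 0.0456), and IGFBP2 did not without 91 dpc replicate 1, 3 or 5 (limma adjusted p = 0.0556, 0.0517 and 0.053). In the list of the growth factor axis these 2 were the calls among 9 measured. Of 16 imprinted and fetal growth genes 3 were called higher and 6 lower. PLAGL1, an imprinted zinc finger protein that controls an imprinted gene network, read 9.49, 9.96 and 10.21 and then 8.68, 7.64, 8.60, 8.54 and 8.68 (difference -1.49 ± 0.24, limma adjusted p = 1.13e-05). DIRAS3 (-1.64), HMGA1 (-1.87) and CITED1 (-1.92) fell, and PEG3 (1.56) and DCN (1.21) rose. CITED1 had a mean of 9.25 at 35 dpc and came down in steps to 5.54 and 3.63.

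Of 13 measured genes of DNA and histone methylation, 7 were called lower and 0 higher by limma (median -0.49; 2 of the 6 others were above 0). DNMT1, the maintenance methyltransferase, read 10.56, 10.98 and 11.25 and then 10.34, 9.94, 10.30, 10.26 and 10.33 (difference -0.69 ± 0.17, limma adjusted p = 0.00121). PRMT5 (-0.85), an arginine methyltransferase, and EZH2 (-0.92), of the polycomb complex, were lower as well, EZH2 with overlap. DNMT3B, a de novo methyltransferase, read 2.90, 3.71 and 5.005 and then 2.58, 2.73, 2.86, 3.45 and 2.78, near background in 3 of 5 late arrays (difference -0.93 ± 0.33, limma adjusted p = 0.0225). Its call was lost without 63 dpc replicate 2 or 91 dpc replicate 1 (limma adjusted p = 0.0845 and 0.0551). In one-carbon metabolism 5 of 27 were called higher and 4 lower, and 4 and 8 after median centring. MAT2A, a synthase of S-adenosylmethionine, rose by 0.74, while its liver form MAT1A had a difference of -0.20 ± 0.11 (limma adjusted p = 0.127; 0.0439 without 63 dpc replicate 5). MTHFD2, a mitochondrial folate enzyme of growing cells, had a log2 difference of -1.38, and BHMT, which remethylates homocysteine with betaine, had a difference of 0.19 ± 0.31 (limma adjusted p = 0.639).

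Several groups of non-parenchymal and neighbouring tissue moved less evenly. Of 12 endothelial genes 4 were called higher and 0 lower by limma (median 0.27; 2 were below 0), with ERG, an endothelial transcription factor, at 1.59 and TEK, the angiopoietin receptor, at 1.24. Of 23 genes of stellate cells, fibroblasts and matrix, 6 were called higher and 0 lower by limma (median 0.20; 9 were below 0). POSTN, periostin, read 7.42, 8.29 and 9.28 and then 10.73, 10.997, 11.32, 10.42 and 10.44 (difference 2.44 ± 0.35, limma adjusted p = 2.19e-06). RGS5, a pericyte gene, was near background in all 6 early arrays and read 2.60, 4.23, 4.53, 3.70 and 4.58 later (at least 2.21-fold higher). Of 18 immediate early genes, 5 were called higher and 4 lower, and 5 and 5 after quantile normalization or median centring. Their median of 0.032 turned to -0.027 after quantile normalization and -0.14 after median centring. EGR1, a transcription factor that cells make quickly and briefly when stimulated, read 7.29, 8.09 and 9.68 and then 11.99, 10.95, 12.07, 9.39 and 10.69 (difference 2.70 ± 0.54, limma adjusted p = 1.58e-04), and FOS 5.60, 6.28 and 6.33 and then 7.96, 8.11, 8.03, 6.74 and 7.38 (difference 1.49 ± 0.30).

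Both troponin I forms were among the largest changes. TNNI1, the slow form, read 9.74, 10.18 and 10.63 and then 6.39, 6.29, 6.28, 7.51 and 8.003 (difference -3.33 ± 0.33, limma adjusted p = 7.59e-09). TNNI2, the fast form, read 6.63, 8.37 and 8.60 and then 12.04, 12.07, 11.77, 11.48 and 11.26 (difference 3.77 ± 0.29, limma adjusted p = 8.05e-11). Of 15 measured muscle genes 4 were called lower and 1, TNNI2, higher (median -0.39), and 6 or 7 lower and 1 higher after quantile normalization or median centring. The myosin light chain MYLPF, a defining marker, was near background in 4 of 6 arrays at 63 dpc and all 5 at 91 dpc, and the creatine kinase CKM read 3.79, 4.80 and 5.46 and 4.22, 4.70, 4.40, 4.20 and 4.21 (limma adjusted p = 0.111; without 63 dpc replicate 1 the difference was -0.64, limma adjusted p = 0.0117). The list averaged 5.09 to 5.51 at 63 dpc and 4.76 to 4.96 at 91 dpc. The part of muscle tissue in the troponin result was not tested.

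The remaining large falls share no list. AQP3, a channel for water and glycerol, read 5.23, 5.95 and 7.13 and then 3.14, 3.25, 3.16, 2.92 and 2.89, after a mean of 9.31 at 35 dpc (difference -2.95 ± 0.29, limma adjusted p = 5.17e-09). PLA2G1B, a secreted phospholipase known from pancreas, read 6.86, 7.75 and 8.31 and then 3.95, 4.42, 3.29, 6.16 and 6.25, with late replicates 4 and 5 above the rest (difference -2.89 ± 0.44, limma adjusted p = 6.07e-06). The pancreas markers CPA1 and CPB1 were filtered out as low, and the elastase CELA1 was at 4.54, 4.87 and 5.29 and then 2.74, 2.89, 2.83, 3.44 and 3.59. The list of pancreas, gut, kidney and adrenal genes, in which PLA2G1B was lowest, did not move one way. Of 5 measured, 2 were called higher and 2 lower (median -0.19, highest 0.91), against 19.3% and 29.5% of all genes. TSPO, a protein of the outer mitochondrial membrane, read 9.92, 10.26 and 10.59 and then 6.83, 6.80, 6.56, 8.51 and 8.29 (difference -2.83 ± 0.29). ZMAT5 (-2.68), CST6 (-2.65), EPDR1 (-2.61), PSMB3 (-2.49), CDA (-2.49), FIBIN (-2.43) and PDZK1IP1 (-2.41) complete the 15 largest. None of these overlapped between the ages.

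The arrays of an age also differed among themselves. The median standard deviation over probe sets was 0.33 at 63 dpc and 0.28 at 91 dpc, and 9560 of 15327 probe sets varied more at 63 dpc. At 63 dpc PAQR8, a membrane progestin receptor, read 7.92, 8.53, 7.25 and 6.74 in replicates 1 to 4 and 3.66 and 3.72 in replicates 5 and 6, against 6.27, 5.33, 5.94, 5.73 and 5.73 at 91 dpc. PPIG, a nuclear cyclophilin, was low in replicates 2 and 4 (3.97 and 3.93) and high in replicates 5 and 6 (7.56 and 7.55). Without replicate 5 or 6 its difference between the ages passed (limma adjusted p = 0.0402 and 0.0417), with all 11 arrays it did not (limma adjusted p = 0.143). At 91 dpc the galanin-like peptide GALP read 4.16, 5.19, 4.20, 7.02 and 7.26, with replicates 4 and 5 highest, and the glutathione transferase GSTM3 4.98, 5.61, 5.09, 7.39 and 7.54, with the same 2 arrays highest. PKIB, an inhibitor of protein kinase A, was lowest in these 2 (6.90, 6.45, 7.37, 3.35 and 4.25). DUSP9, a phosphatase, read 7.52, 9.88, 7.32, 9.48 and 7.91, with the low-gap replicates 2 and 4 highest. These genes were chosen for their spread, which is given as a description.

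**Figure D4:**
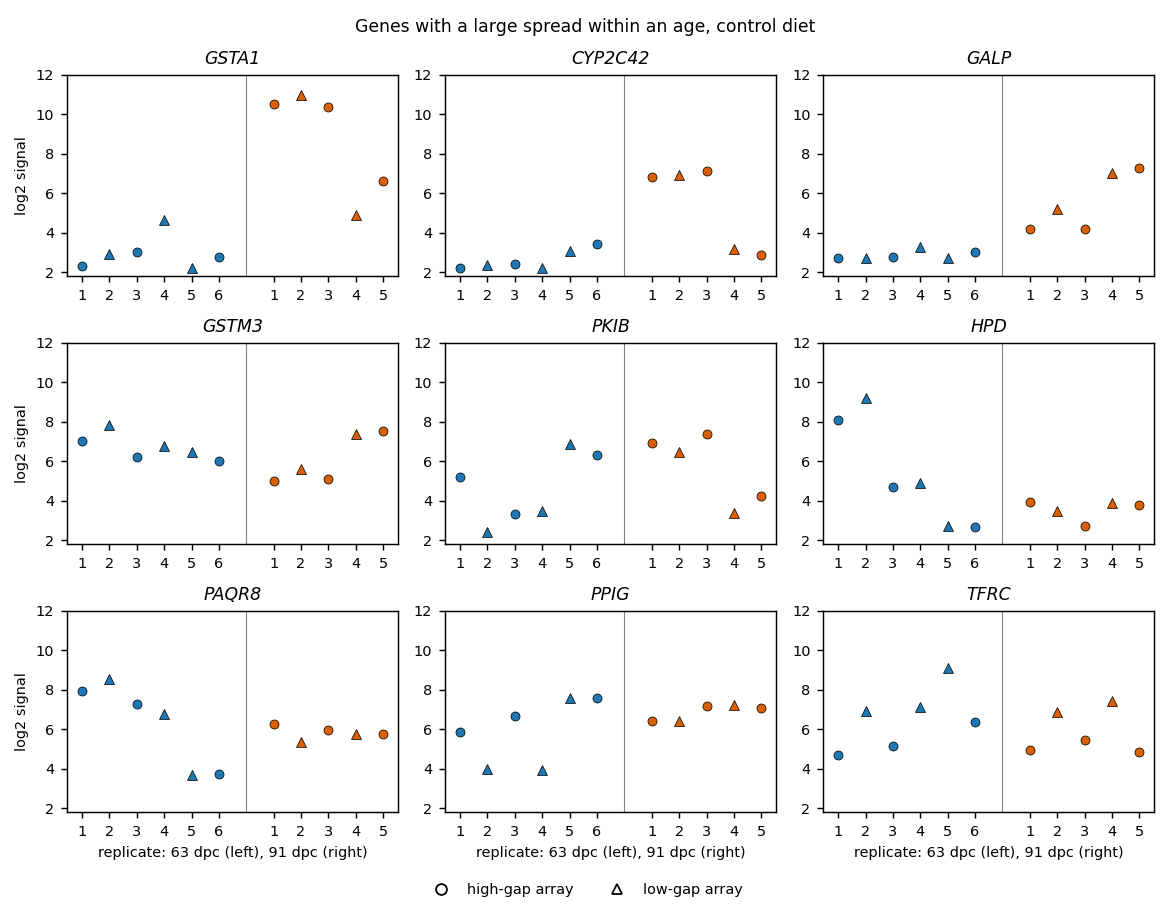
Log2 signal (vertical axis) in each of the 11 arrays (horizontal axis, replicate number within age) for 9 genes with a large spread within an age, with circles for high-gap and triangles for low-gap arrays. GSTA1 and CYP2C42 were lower and GALP and GSTM3 higher in 91 dpc replicates 4 and 5 than in replicates 1 to 3, and PAQR8 stood at 3.66 and 3.72 in 63 dpc replicates 5 and 6.

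Under the methyl-enriched diet, on other arrays, 6691 of 15327 probe sets (43.7%) were called between 63 and 91 dpc. Across probe sets, which are not independent replicates, the differences under both diets correlated at 0.917, and 5272 probe sets were called with the same sign under both diets and 1 with opposite signs. The test of the difference itself, control change minus methyl change, called 0 probe sets by limma. An unadjusted p under 0.05 was reached by 753 (4.91%), and the median standard error of that difference was 0.295. Differences of the changes several times that size, given below, did not pass either. The smallest adjusted p, 0.0819, belonged to a second probe set of DDX39B, an RNA helicase, named after its values were seen. It read 3.81 to 7.48 at 63 dpc and 5.75 to 7.52 at 91 dpc under the control diet, and 5.14 to 7.70 and then 2.71 to 3.95 under the methyl diet. The brighter DDX39B probe set changed by -0.84 under the control diet and -0.82 under the methyl diet.

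No gene passed, so the 5 genes with the smallest p among brightest probe sets are given as values. MKNK1, a kinase that phosphorylates a translation initiation factor, changed by 1.49 under the control and 0.54 under the methyl diet (difference of the changes 0.95 ± 0.22, limma adjusted p = 0.390). TAT changed by 1.37 under the control diet and 0.0051 under the methyl diet (difference of the changes 1.36 ± 0.30, limma adjusted p = 0.312). ARG2, the mitochondrial arginase, read 4.69, 5.19 and 6.58 and then 6.78, 7.45, 6.77, 6.73 and 6.28 in controls, a change of 1.40, and changed by -0.64 under the methyl diet (difference of the changes 2.04 ± 0.53, limma adjusted p = 0.677). PCK2, the mitochondrial enzyme of gluconeogenesis, changed by 0.64 and -0.47 (difference of the changes 1.11 ± 0.29, limma adjusted p = 0.677), and AOAH, which inactivates lipopolysaccharide, by -0.030 and -0.95 (difference of the changes 0.92 ± 0.25, limma adjusted p = 0.680). The control-diet change of PCK2 passed on its own (limma adjusted p = 0.0121) but not without 91 dpc replicate 1 (limma adjusted p = 0.0708). It also did not pass in a fit of the 11 control arrays alone, after median centring, in the low-gap arrays alone or as the mean of all PCK2 probe sets. The other PCK2 probe sets had control-diet differences of 0.21 and 0.10 (limma adjusted p = 0.592 and 0.842). SLC2A1, the largest transporter fall, changed by -3.14 under the control and -4.53 under the methyl diet (difference of the changes 1.39 ± 0.40, limma adjusted p = 0.684).

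**Figure D5:**
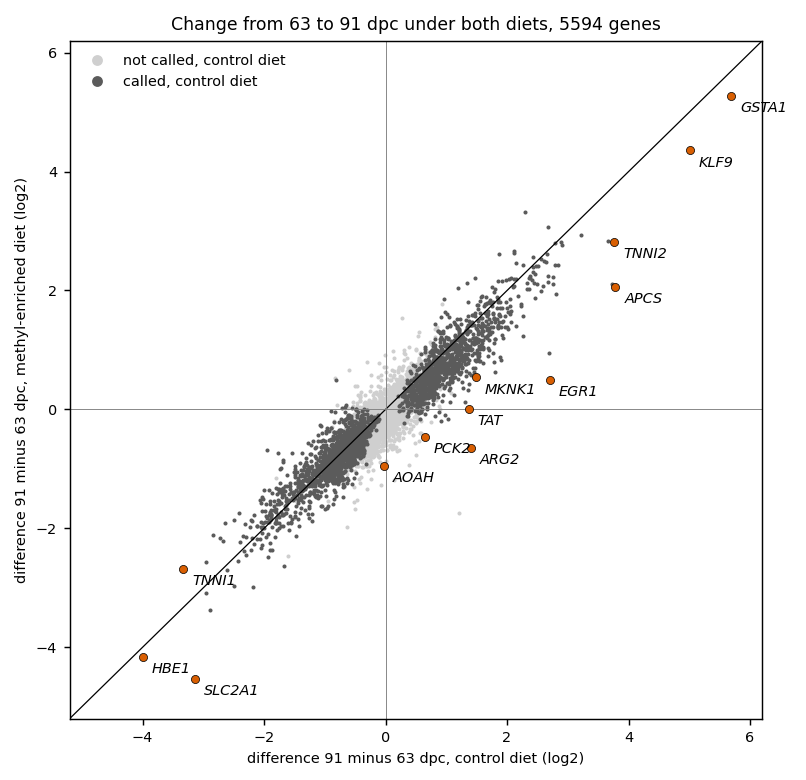
Difference 91 minus 63 dpc under the control diet (horizontal axis, log2) against that under the methyl-enriched diet (vertical axis, log2) for the 5594 genes by brightest probe set, with the line of equal change and named genes in colour. Genes called under the control diet are dark and the others light, and TAT and ARG2 stood below the line at 0.0051 and -0.64 under the methyl diet against 1.37 and 1.40 under the control diet.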

How the data were processed

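Total RNA of fetal liver was read on 32 one-colour arrays after conversion to biotin-labelled cRNA, per the labels' protocols. The deposited table holds log2 values per probe set. The submitters' processing notes name GCOS 1.1.1, while the scaling between arrays is not given in the sources used here. Nothing was rescaled for the main fit, and 26.1% of them lie within 0.01 of the lowest value, so a fold from that level understates a change.

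A linear model with 6 group means over all 32 arrays was fitted in limma 3.58.1 (R 4.3.3) with an intensity trend, and p-values were adjusted by Benjamini-Hochberg over the 15327 kept probe sets. Fitting all groups gives 1 shared estimate of the spread. A gene is read by its brightest probe set with a single symbol in the platform annotation (10069 probe sets have 1 symbol, 198 several and 13732 none, and 9961 matched RefSeq by gene number, with 0 symbols changed). At least folds compare the 91 dpc mean with the higher, per 63 dpc array, of its 40th percentile and the probe set's own value.

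Named genes are the 15 largest rises and falls, up to 6 members of each list by smallest p, the 5 smallest p of the diet difference, genes of large spread within an age, and a set chosen for known roles. Members and lists were chosen with earlier results of these data known. Replicate numbers follow accession order and only name arrays. HBZ, H19, G6PC and MKI67 are not analysed here. Alternatives changed the arrays fitted, the filter, the normalization, the variance model, array weights, the threshold, the probe set per gene, the gap set, a Y-linked gene's level (EIF1AY) or the 3' to 5' difference as covariates, and left out each array.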

Additional observations from a re-analysis of the deposited data

Results flagged for a closer look

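In the 362 groups of 5 or 6 arrays checked for the named genes, 18 held 1 array far from the others by Dixon's gap test, and chance flags about 1 group in 20. At 63 dpc, replicate 2 was lowest for ALB at 13.88 and highest for IGFBP1 at 13.15, LMO2 at 9.76 and SERPINA6 at 12.44. Replicate 4 was lowest for FOS at 5.60 and highest for GSTA1 at 4.64. Replicate 1 was lowest for DNAJC3 at 6.17, replicate 5 highest for NR3C1 at 4.27 and replicate 6 highest for NR2F1 at 4.35.

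At 91 dpc, replicate 5 was highest for BCL11A at 4.77, CD5L at 10.71 and IRF1 at 7.06. Replicate 2 was lowest for DNMT1 at 9.94 and PLAGL1 at 7.64 and highest for AOAH at 4.0. Replicate 1 was lowest for PPBP at 7.96 and for SLC2A3 at 5.16, and replicate 4 was highest for EPO at 3.37.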

How the results depend on the processing

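The count of probe sets called between 63 and 91 dpc under the control diet, 6892, became 2802 with 1 probe set per gene and 2272 in the low-gap arrays alone, both of which use fewer probe sets or arrays. It ran from 5843 (without 91 dpc replicate 3) to 7259 (without 63 dpc replicate 5) when 1 array was left out. Without 63 dpc replicates 2 and 4 together, an alternative chosen after seeing the data, it was 4882, and among the gene lists neutrophil granule genes then held 6 lower calls in place of 9, cytosolic ribosomal proteins 5 in place of 15, and gluconeogenesis and glycogen 6 higher and 2 lower in place of 9 and 5. The count between 35 and 63 dpc, 6055, became 2890 and 621 under the same 2 settings and ran from 4862 to 6707 with 1 array left out. The count for the diet difference, 0, became 2 with array weights, 1 at an adjusted p under 0.10, 1 with the gap set as a term, 3 in the high-gap and 2 in the low-gap arrays alone, 1 with EIF1AY and 1 with the 3' to 5' difference as a covariate, and 0 to 2 with 1 of 22 arrays left out (2 without control 91 dpc replicate 4 or 5). The cause of these changes was not tested.

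Of 184 named genes 160 were called. Of these, 121 kept direction and call in every alternative that gave them a value (27, or 26 for genes that the 60th percentile filter removed), 39 lost the call in at least 1 (35 in the low-gap and 15 in the high-gap arrays alone), and 0 turned direction. Of the genes not called, 10 were called in at least 1 alternative and 12 turned direction in at least 1. Centred on array medians, the differences were -0.13 for APOA1, -0.079 for C1QA, -0.099 for HAMP, -0.051 for TOP2A and -0.14 for TTR, and AFP was at 0.028 after quantile normalization. In the high-gap arrays APOA1 was at -0.028, HAMP at -0.060 and TOP2A at -0.20. In the low-gap arrays AFP was at 0.027, AOAH at 0.035, C1QA at -0.52 and HNF4A at 0.12. With EIF1AY as a covariate AOAH was at 0.015 and HAMP at -0.011, and with the 3' to 5' difference BHMT was at -0.044, HNF4A at 0.054 and TTR at -0.020. Without 63 dpc replicates 2 and 4 together AOAH was at 0.035, PAQR8 at 0.16, PPIG at -0.051 and TOP2A at -0.44. The mean of all its probe sets put IGF2 at -0.077. With 1 array left out in turn, the difference ran from -0.055 to 0.10 for HNF4A, from -0.13 to 0.043 for AOAH, from -0.14 to 0.34 for TOP2A, from -0.075 to 0.24 for C1QA and from -0.0080 to 0.063 for TTR. No paired analysis was possible because replicate numbers were given in accession order and the labels pair no arrays.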

Other observations

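Gene families picked by symbol prefix, after the data were seen, add to the fixed lists and are to be read against 19.3% of genes called higher and 29.5% lower, with a median of -0.12. Of 58 mitochondrial ribosomal proteins 36 were called lower and 2 higher (median -0.47), with MRPS12 at -1.34 ± 0.21 (limma adjusted p = 8.00e-06) and MRPS25 at -1.27, and MRPL1 at 0.93 as the larger of the 2 rises. Of 33 proteasome subunits 22 were called lower and 1, PSMC6 (0.59), higher (median -0.45), among them PSMD2 (-0.94) and PSMB4 (-0.86). Of 10 small nuclear ribonucleoproteins of the spliceosome 7 were called lower (median -0.72), with SNRPA at -1.25. Of 20 RNA polymerase subunits 10 were called lower and 1, POLR2B (0.88), higher. All 5 tubulin and tubulin complex genes fell, TUBB4B by 1.73 on the log2 scale. Of 40 zinc finger genes named ZNF, 10 were called higher and 2 lower, with ZNF397 at 2.48 ± 0.29 (limma adjusted p = 1.10e-07) and ZNF277 at 2.32. Of 9 cathepsins, lysosomal proteases, 3 were called higher: CTSS (1.18), CTSK (1.06) and CTSC (0.53).

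Of 17 measured genes of iron, copper and zinc handling 5 were called higher and 5 lower (3 and 5 after median centring). The mitochondrial iron importer SLC25A37 fell by 1.31 on the log2 scale and the ferritin heavy chain FTH1 by 0.43, while IREB2 (0.82) and ACO1 (0.51), the iron-responsive RNA-binding proteins, rose. Of 17 hypoxia genes 4 were called in each direction (2 higher and 4 lower after median centring). HIF1A, the oxygen-regulated transcription factor, rose by 1.13 and EGLN1, the enzyme that marks it for breakdown, by 0.89, while LDHA was lower (-0.78) and CA12 was at -1.20. Probe sets without a single gene symbol, 7702 of the 15327 tested, held 2388 of the higher and 1042 of the lower calls.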
